A study of Saccharomyces cerevisiae with 12 samples.

Results

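The comparison described here sets the evolved yeast mutant E62A against the strain whose arrays are labelled PGM2. Of the 12 Affymetrix arrays of the series, 4 carry these titles, E62A-1 and E62A-2 against PGM2-1 and PGM2-2. All cultures were Saccharomyces cerevisiae of the CEN.PK113-7D background, a haploid laboratory strain of mating type a, grown in aerobic batch fermenters at pH 5.0 on a minimal medium in which galactose was the carbon source, with RNA taken in mid exponential phase. E62A is 1 of 3 mutants that the study obtained by evolution on galactose. The label PGM2 stands, as known from the study, for a strain engineered to overexpress PGM2, the main phosphoglucomutase. The arrays labelled REF, from the unmodified reference strain, were kept out of the test, and their levels are given only to show where the reference lay. Arrays labelled E62B, E62C and SO16 entered the fit only to estimate the spread, and some of their levels are given. As known from the study, E62B and E62C stand for the other evolved mutants and SO16 for a strain engineered by gene deletion. Each group is a single strain, so a difference belongs to that strain and not to evolved or engineered yeast in general.

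Galactose enters the yeast cell through the permease Gal2 and is turned into a phosphate of glucose by the enzymes of the Leloir pathway, after which phosphoglucomutase feeds it into glycolysis. Growth on galactose is slower than on glucose, and cells on it keep part of their stress, respiratory and alternative carbon source genes on. The study sought strains that use galactose faster, by evolution and by engineering, and the direct comparison asks, going by the labels, how the transcript levels of an evolved and an engineered strain differ from each other.

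Levels are deposited values of the robust multi-array average (RMA) on a log2 scale, and differences are the mean of the E62A arrays minus the mean of the arrays labelled PGM2, ± the standard error (SE) that limma gives, from 2 arrays per group. A gene was called where its Benjamini-Hochberg adjusted p from limma over 5449 tested genes was under 0.05. Nothing in the labels tells separate cultures from repeated measurement of the same RNA within a group, and the p values may therefore reflect technical spread alone. With 2 arrays on each side, the smallest two-sided p of an exact permutation test is 0.333, so calls on single genes rest on the spread that limma pools over genes and groups.

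The transcript that gives the label PGM2 its name went against that label. PGM2 lay at 11.41 and 11.40 on the E62A arrays, against 10.49 and 10.87 on the arrays labelled PGM2. The REF arrays had 12.14 and 12.11, and the highest PGM2 levels of the series, 13.43 and 13.19, were on the arrays labelled E62C. URA3, a uracil synthesis gene that serves as a plasmid marker, was at 9.73 and 9.81 in E62A and at 9.65 and 9.62 on the arrays labelled PGM2, while the arrays labelled E62C had 12.12 and 12.34. YGL007C-A, a small reading frame, stood at 7.41 and 7.34 in E62A, 7.72 and 7.69 on the arrays labelled PGM2, and 13.48 and 13.09 on those labelled E62C. The arrays labelled PGM2 therefore had the lowest PGM2 levels of the 12 arrays, and the libraries are called by their labels throughout. Whether the labels PGM2 and E62C were exchanged was not tested. If they were, the arrays labelled PGM2 would be those of an evolved strain and not of the engineered one. The difference between E62A and the arrays labelled PGM2 in PGM2 itself was 0.72 ± 0.121 (adjusted p = 0.00228 from limma).

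**Figure D1:**
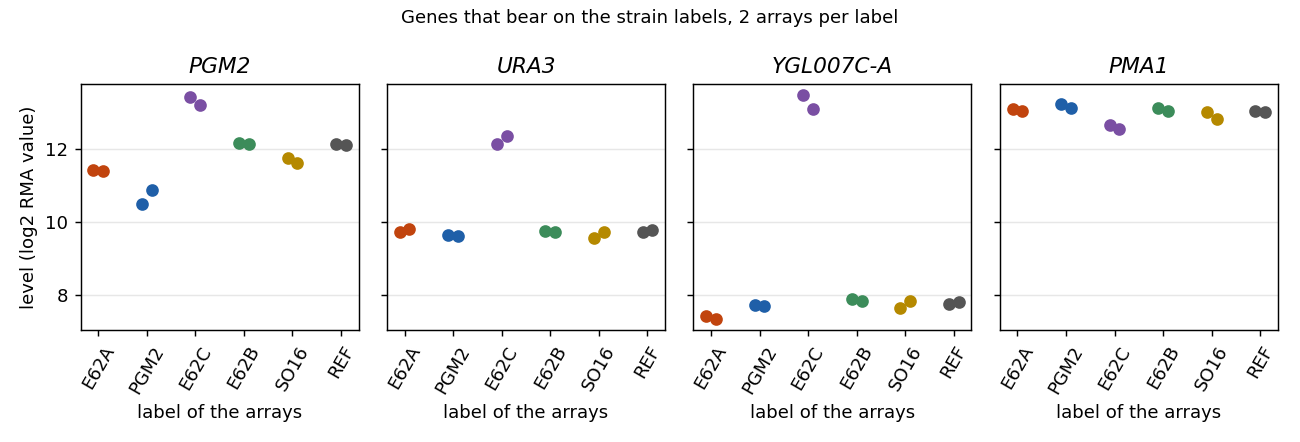
Levels (log2 RMA values, vertical axis) of PGM2, URA3, YGL007C-A and PMA1 on all 12 arrays, 2 points per label, with E62A first and REF last. PGM2 is lowest at 10.49 and 10.87 on the arrays labelled PGM2 and highest at 13.43 and 13.19 on the arrays labelled E62C, which also stand apart in URA3 and YGL007C-A.

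Bacterial hybridisation controls averaged 10.69 and 10.37 on the E62A arrays and 10.62 and 11.03 on the arrays labelled PGM2, and ribosomal RNA probe sets averaged 10.19 and 9.30 on the E62A arrays and 9.98 and 9.85 on the arrays labelled PGM2. Over all genes, the 2 E62A arrays differed from each other with an SD of 0.0919 and the 2 arrays labelled PGM2 with an SD of 0.181, while pairs across the groups had an SD between 0.322 and 0.348. Between the strains 1162 genes passed the test, which is 21.3% of those tested. Of these, 539 (9.89%) were higher and 623 (11.4%) lower in E62A. At each of the 1162 both E62A arrays lay on the same side of both arrays labelled PGM2. A small p from 2 against 2 arrays nearly requires this, so it adds no support. Over all 5449 tested genes, called or not, both E62A arrays lay above both arrays labelled PGM2 at 1871 and below them at 1925. Large differences ran more often downward, since 29 called genes were higher and 75 lower by 1 or more on the log2 scale. The median difference over all tested genes was close to 0, at -0.00048. The count dropped when an array of the comparison was left out, to 583 without E62A replicate 1, 590 without E62A replicate 2, 648 without PGM2 replicate 1 and 829 without PGM2 replicate 2. It was 1767 when the 4 arrays of the comparison alone were fitted.

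**Figure D2:**
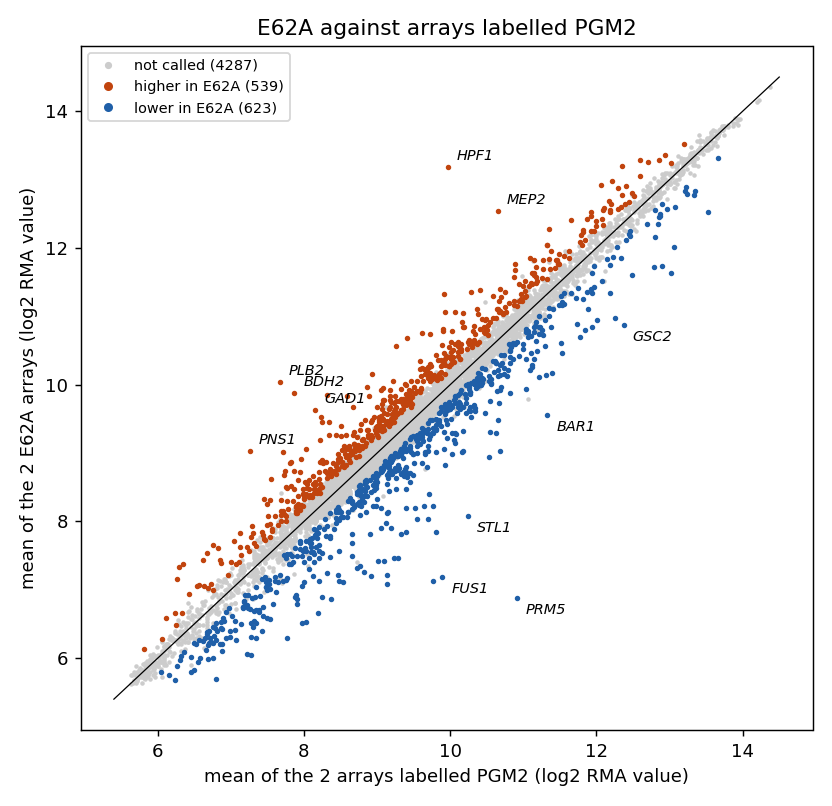
Mean of the 2 E62A arrays (vertical axis) against the mean of the 2 arrays labelled PGM2 (horizontal axis), log2 RMA values, 1 point per gene, with equality as a line. Red points are the 539 genes called higher in E62A and blue points the 623 called lower. PRM5 lies farthest below the line and HPF1 farthest above it.

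The largest rise was in HPF1, which encodes a mannoprotein of the cell wall. HPF1 lay at 13.18 on both E62A arrays, against 9.95 and 9.98 on the arrays labelled PGM2, a difference of 3.21 ± 0.211 or 9.26-fold. The REF arrays were between these groups, at 11.92 and 11.88. PLB2, a phospholipase B, was at 10.04 and 10.05 in E62A against 7.65 and 7.69 on PGM2-labelled arrays (2.38 ± 0.0860, adjusted p = 2.77e-07 from limma). BDH2, a putative butanediol dehydrogenase, lay at 9.78 and 9.98 in E62A against 7.78 and 7.96 on PGM2-labelled arrays, with REF at 10.09 and 10.34. E62A and REF were thus both far above the arrays labelled PGM2 for BDH2, and the same held for PNS1 (9.02 and 9.03 in E62A, 7.10 and 7.42 on the arrays labelled PGM2, 9.51 and 9.56 in REF). MEP2, the high-affinity ammonium permease, was at 12.47 and 12.61 in E62A and at 10.75 and 10.55 on the arrays labelled PGM2. Here REF, at 10.85 and 10.98, was near the arrays labelled PGM2. GAD1 (glutamate decarboxylase), CAR2 (ornithine transaminase), GAP1 (the general amino acid permease), MSC1, FMP23, ATF2 (an alcohol acetyltransferase) and DIC1 (the mitochondrial dicarboxylate carrier) completed the 12 largest rises, with differences from 1.28 to 1.53. FMP23 is the least even of them, at 8.92 and 9.12 in E62A against 8.08 and 7.34 on PGM2-labelled arrays.

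The largest fall, and the largest difference in either direction, was in PRM5. This gene encodes a membrane protein induced by pheromone and by the cell wall integrity pathway. PRM5 lay at 6.93 and 6.84 in E62A, against 10.78 and 11.04 on the arrays labelled PGM2, a difference of -4.03 ± 0.101 or 16.3-fold (adjusted p = 3.27e-08 from limma). REF was between them at 8.47 and 8.56. FUS1, a membrane protein of mating cell fusion, was at 7.20 and 7.18 in E62A against 9.90 and 9.88 on PGM2-labelled arrays (-2.70 ± 0.0781). PHO89, a sodium and phosphate cotransporter, was at 7.14 and 7.13 in E62A against 9.82 and 9.70 on PGM2-labelled arrays (-2.63 ± 0.123). STL1, the glycerol proton symporter, was at 8.08 on both E62A arrays, against 10.32 and 10.17 on the arrays labelled PGM2 and 10.14 and 10.09 in REF. For STL1 the E62A arrays are thus the ones that stand apart, while for PRM5 and PHO89 the 3 strains form 3 separate levels. The other large falls were in YCL021W-A, SRD1, AFB1, YDR261C-D, BAR1, PRM10, TYE7 and THI13, from -2.05 to -1.67. The probe sets of YDR261C-D and THI13 are shared with near-identical genes and cannot tell them apart.

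**Figure D3:**
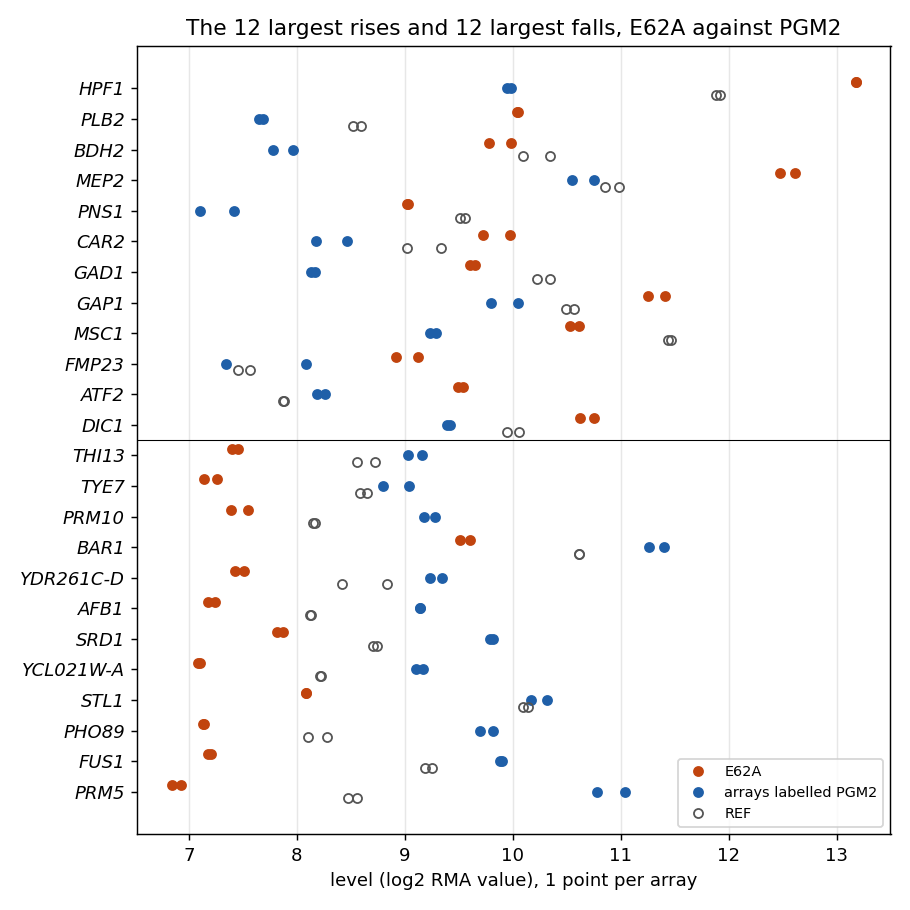
Levels (log2 RMA values, horizontal axis) of the 12 genes with the largest rises (upper block) and the 12 with the largest falls (lower block), with 1 point per array for E62A, the arrays labelled PGM2 and REF. The groups E62A and PGM2 do not overlap for any of the 24 genes, and REF lies between them for HPF1 and PRM5 but near the arrays labelled PGM2 for MEP2 and STL1.

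Across the whole comparison the position of REF was mixed. Of the 539 genes higher in E62A, both REF arrays lay between the groups for 236, above both groups for 63 and below both for 42. Of the 623 genes lower in E62A, REF lay between the groups for 332, above both for 35 and below both for 30. The remaining 198 and 226 genes had REF arrays within the range of a group or across its edge.

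Most of the measured genes on the cell wall integrity list were lower in E62A. When the wall is weakened, the MAP kinase Slt2 activates the transcription factor Rlm1, which turns on genes for glucan and chitin synthesis and for wall proteins. Of 27 measured members of this list, 16 were lower and 0 higher in E62A, against 11.4% and 9.89% of all tested genes, and the median difference was -0.50. Of these 16 genes, 15 or 16 were called lower when any 1 of the 4 arrays was left out. After PRM5, the largest falls were in YPS3 and YPS1, aspartyl proteases anchored at the cell surface, at -1.65 ± 0.106 and -1.10 ± 0.0689. GSC2, the stress-induced catalytic subunit of glucan synthase, lay at 10.69 and 11.04 in E62A against 12.35 and 12.39 on the arrays labelled PGM2, and at 11.24 and 11.29 in REF. SLT2, the kinase gene, was at 9.48 and 9.50 in E62A against 10.61 and 10.72 on PGM2-labelled arrays (-1.17 ± 0.0666, adjusted p = 4.87e-06 from limma). Among E62A, REF and the arrays labelled PGM2, the last were the high group for both genes, with REF a little above E62A. The high level was not particular to them. SO16 arrays lay at 10.67 and 10.68 for SLT2, 11.82 and 12.10 for GSC2 and 10.16 and 10.31 for PRM5. E62B and E62C were near REF for SLT2 and GSC2. SCW10, a wall protein related to glucanases, fell by 1.05 ± 0.0625 on the log2 scale. Other members that fell, named after their values were seen, include the transcription factor gene RLM1 (-0.58 ± 0.0745), the chitin synthase gene CHS3 (-0.77 ± 0.107), the chitin-glucan crosslinking enzyme gene CRH1 (-0.85 ± 0.0809) and FKS1, the main glucan synthase subunit (-0.34 ± 0.0720). The FKS1 call ended without E62A replicate 1 (adjusted p = 0.0929 from limma) or PGM2 replicate 1 (0.0605). For 13 of the 16 lower genes both REF arrays lay between the groups. The 11 members that were not called lay between -0.20 and 0.04.

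Most genes of the mating response were lower in E62A as well. In haploid yeast a receptor and a G protein pass the pheromone signal through a MAP kinase cascade to the transcription factor Ste12, which induces genes for arrest, cell adhesion and fusion. Of 26 measured members, 19 were lower and 0 higher, with a median of -0.51, and all 26 differences were below 0. This is 73.1% of the list, against 21.3% of all tested genes. After FUS1, the falls were largest in AGA1, the anchor of the a-agglutinin adhesion protein, at 8.17 and 8.30 in E62A against 9.71 and 9.83 on the arrays labelled PGM2 (-1.54 ± 0.100). PRM1, which acts in fusion of the mating cells' membranes, was at 6.30 and 6.31 in E62A against 7.70 and 7.83 on PGM2-labelled arrays. REF was at 9.52 and 9.60 for AGA1 and 7.26 and 7.48 for PRM1, nearer to the arrays labelled PGM2 than to E62A. Over the 19 called genes, both REF arrays lay between the groups for 13. PRM4 fell by 1.24 ± 0.0909, CHS1 (a chitin synthase) by 0.94 ± 0.0896 and SST2, which damps the G protein signal, by 0.92 ± 0.0694 on the log2 scale. Named after their values were seen, the MAP kinase gene FUS3 (-0.88 ± 0.0687), the G alpha subunit gene GPA1 (-0.38 ± 0.0767) and STE12 itself (-0.46 ± 0.0816) fell too, though GPA1 was not called without E62A replicate 2 (adjusted p = 0.0679 from limma) or PGM2 replicate 1 (0.0528). The upstream kinase genes STE20, STE11 and STE7, the scaffold gene STE5 and the G protein subunit genes STE4 and STE18 were not called, with differences from -0.27 to -0.07. STE4, the lowest of them at -0.27, was called by 9 of 18 alternatives. Of these 19 genes, 16 to 18 were called lower when any 1 array was left out.

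The called genes that mark a mating type were lower in E62A, whichever type they mark. They made up 85.7% of the list for type a and 50% of the list for type alpha, against 21.3% of all tested genes. Of 7 genes that mark cells of mating type a, 6 were lower, with a median of -0.53, and 3 were called without E62A replicate 2 or PGM2 replicate 1 and 5 without each of the other arrays. BAR1, the secreted protease that degrades alpha-factor, was at 9.60 and 9.51 in E62A against 11.40 and 11.26 on the arrays labelled PGM2, with REF at 10.61 on both arrays. MFA1, which encodes the a-factor precursor, was at 10.10 and 10.18 in E62A against 11.44 and 11.18 on PGM2-labelled arrays (-1.17 ± 0.144). The second a-factor gene, MFA2, was not called, at -0.09. Of 4 genes that mark alpha cells, STE3 (the a-factor receptor) and MF(ALPHA)1 were lower, at 6.47 and 6.58 in E62A against 8.12 and 7.94 on PGM2-labelled arrays and at 6.68 and 6.90 in E62A against 7.90 and 7.93 on PGM2-labelled arrays, while MF(ALPHA)2 and SAG1 were not called. The a-specific genes were thus present on all 4 arrays, as in the labelled background, and the part that a minority of alpha-type cells could have in the levels of STE3 was not tested. In such bulk samples, fewer cells of a type and less RNA per cell cannot be told apart.

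Most genes of the pathway from squalene to ergosterol, the main sterol of yeast membranes, were higher in E62A. Of 17 measured genes 14 were higher and 0 lower, with a median of 0.51 and with 12 called whichever array was left out. The called share was 82.4%, against 21.3% of all tested genes. All measured genes of the list are in a plot with their standard errors, in the order of the pathway. ERG24, a sterol reductase, lay at 11.76 and 11.78 in E62A against 10.99 and 10.79 on the arrays labelled PGM2, a difference of 0.88 ± 0.122. ERG3, a sterol desaturase, was at 12.94 and 13.02 in E62A against 12.26 and 12.16 on PGM2-labelled arrays, and ERG25, which acts in demethylation, at 13.27 and 13.30 in E62A against 12.64 and 12.57 on PGM2-labelled arrays. NCP1, the reductase that passes electrons to the P450 enzymes of the pathway, rose by 0.71 ± 0.0952, ERG28 by 0.66 ± 0.0932 and ERG4, the last reductase, by 0.58 ± 0.0956. ERG5, another desaturase, was at 12.46 and 12.48 in E62A, against a mean of 11.92 on the arrays labelled PGM2 (0.56 ± 0.0978), and at 11.95 and 12.09 in REF. ERG26, ERG27 and ERG7, named after their values were seen, were not called, with differences of 0.14, -0.04 and 0.28, and ERG7 was called by 7 of 18 alternatives. For the 14 called genes both REF arrays lay below both groups for 7, between them for 2 and within or across a group for 5. REF lay above both groups for 0 of them.

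**Figure D4:**
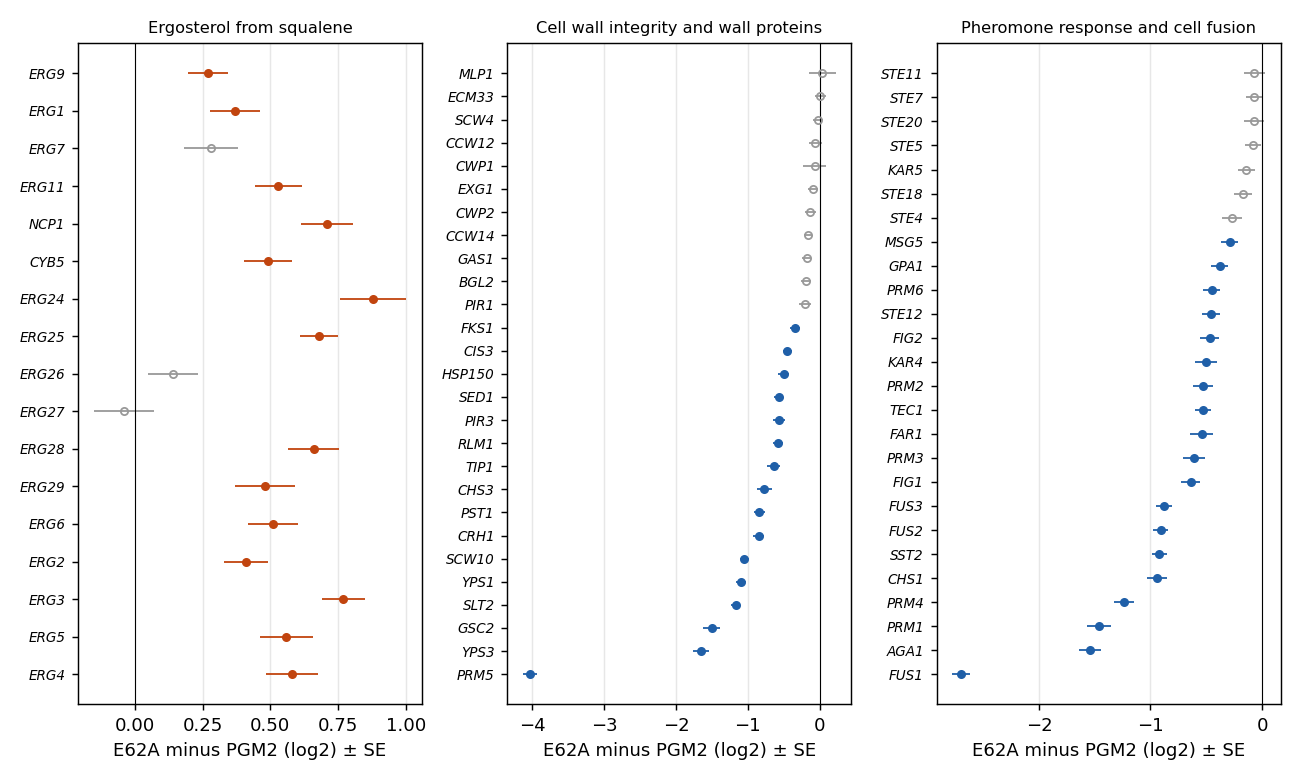
E62A minus PGM2 differences (log2, horizontal axis, ± SE) for each measured gene of 3 lists, ergosterol synthesis in the order of the pathway and the other lists by size. Filled points passed the test. In the sterol list 14 of 17 genes are higher, in the cell wall list 16 of 27 are lower, and in the pheromone list 19 of 26 are lower.

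Fewer genes were called on the list for the steps before squalene, and those for the regulators of sterols went both ways. Of 11 genes on the mevalonate list 2 were higher and 1 lower, with a median of 0.03. This is 27.3% of the list, close to the 21.3% of all tested genes. Neither of the 2 higher calls held without E62A replicate 1, E62A replicate 2 or PGM2 replicate 2. The fall was in HMX1, a heme oxygenase, which is not a step before squalene and also stands on the iron list. Of 20 genes for sterol regulation, esterification and uptake, 6 were higher and 3 lower, with 1 lower whichever array was left out. The called share of this list was 45%. ARE2, which esterifies sterols for storage, rose by 0.57 ± 0.0985, and OPT2, a transporter of the oligopeptide family, by 1.06 ± 0.105. The 3 relatives that encode secreted sterol-binding proteins split by gene. PRY1 lay at 11.64 and 11.72 in E62A against 10.98 and 10.79 on PGM2-labelled arrays, PRY3 at 10.30 and 10.38 in E62A against 9.49 and 9.70 on PGM2-labelled arrays, but PRY2 at 11.76 and 11.70 in E62A against 12.88 and 12.91 on the arrays labelled PGM2. The regulator genes UPC2 and ECM22, named after their values were seen, went opposite ways, at 0.47 ± 0.109 and -0.39 ± 0.0987, but ECM22 was not called without each array in turn (adjusted p from 0.0512 to 0.155, limma) and UPC2 without E62A replicate 1 (0.0969) or PGM2 replicate 2 (0.0868). On the inositol and phospholipid list 0 of 18 measured genes passed limma's test, 1 had an unadjusted p under 0.05, and the differences ran from -0.25 to 0.14. CHO2 was called by some other settings, at -0.25 with an adjusted p of 0.0209 from limma on the 4 arrays alone.

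The called genes of the general stress response and of reserve carbohydrates were mostly higher in E62A than on the arrays labelled PGM2. Msn2 and Msn4 turn on the stress genes when protein kinase A activity is low. Of 30 measured members, 14 were higher and 3 lower, with a median of 0.35. This is 56.7% of the list, against 21.3% of all tested genes. DCS2 was at 10.15 and 10.17 in E62A against 8.92 and 8.95 on the arrays labelled PGM2, and at 11.04 and 11.16 in REF. GAD1 had the same order, at 9.65 and 9.60 in E62A, 8.17 and 8.13 on the arrays labelled PGM2 and 10.22 and 10.34 in REF. MSC1 rose by 1.31 ± 0.107, RTN2 by 0.95 ± 0.0875, FMP16 by 0.88 ± 0.0850 and OM45 by 0.76 ± 0.0971. For 13 of the 14 higher genes, REF was above both strains, so that E62A held an intermediate level. HSP26, a small heat shock protein gene named after its values were seen, shows how wide that gap was, at 9.85 and 9.99 in E62A, 9.21 and 9.14 on the arrays labelled PGM2 and 12.58 and 12.66 in REF. The 3 members that were lower in E62A (SPI1, HSP78 and SSA4, the first and second of them named after their values were seen) also had REF above both. CTT1, the cytosolic catalase often used to read this response, was not called, at -0.13, and was named after its value was seen. Leaving out any 1 array gave 12 to 14 higher and 1 lower, and HSP78 (adjusted p from 0.127 to 0.194, limma) and SSA4 (0.0738 to 0.116) were then not called.

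Of 20 genes for glycogen and trehalose, 10 were higher and 1 lower, with a median of 0.32, and 6 to 8 were higher when an array was left out, the fewest without E62A replicate 2. The called share was 55%, against 21.3% of all tested genes. TSL1, a subunit of trehalose phosphate synthase, was at 11.07 on both E62A arrays against 9.72 and 10.15 on the arrays labelled PGM2. GLC3, the glycogen branching enzyme, was at 11.03 and 11.11 in E62A against 9.97 and 10.16 on PGM2-labelled arrays, with REF at 11.66 and 11.67. GPH1, glycogen phosphorylase, rose by 0.62 ± 0.0832, and GLG2, which primes glycogen, by 0.67 ± 0.0897. Genes for making and for breaking down the reserves were thus both higher in E62A than on the arrays labelled PGM2. For 9 of the 10 higher genes, however, both REF arrays lay above both groups. The glycogen synthase genes GSY1 and GSY2, named after their values were seen, were not called, at 0.20 and 0.02. PGM2 belongs to both of these lists.

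Among 22 genes of the Ras and protein kinase A pathway, 4 were higher and 1 lower, which is close to the share of all genes. BCY1, the regulatory subunit that inhibits the kinase, was at 10.79 and 10.78 in E62A against 10.23 and 10.39 on PGM2-labelled arrays, and TPK2, a catalytic subunit, at 10.20 and 10.25 in E62A against 9.63 and 9.66 on PGM2-labelled arrays. CYR1, adenylate cyclase, rose by 0.53 ± 0.105 (adjusted p = 0.00581 from limma, and 0.051 without E62A replicate 2). RAS2 was at 10.51 and 10.59 in E62A, against 10.32 and 10.28 on the arrays labelled PGM2, but its call ended without each of the 4 arrays in turn, with adjusted p from limma between 0.0616 and 0.173. Chaperone genes driven by the heat shock factor Hsf1 did not follow the stress genes. Of 20, 8 were lower and 0 higher in E62A, with a median of -0.20, and 4 or 5 were lower whichever array was left out. The called share of the chaperone list was 40%, against 21.3% of all tested genes. AHA1, an Hsp90 cochaperone, fell by 0.60 ± 0.0710, and KAR2, the chaperone of the endoplasmic reticulum, was at 12.60 on both E62A arrays against 13.10 and 13.04 on the arrays labelled PGM2.

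Genes for nitrogen sources differed by list. Nitrogen catabolite genes are repressed by good nitrogen sources and activated by Gln3 and Gat1. Of 30 measured, 12 were higher and 2 lower, with a median of 0.17, and 6 to 10 were higher when 1 array was left out (6 without E62A replicate 2 and 7 without PGM2 replicate 1). The called share of this list was 46.7%, against 21.3% of all tested genes. MEP2 led, followed by CAR2 at 9.72 and 9.97 in E62A against 8.18 and 8.46 on the arrays labelled PGM2. GAP1 was at 11.25 and 11.41 in E62A against 10.05 and 9.80 on PGM2-labelled arrays, and DAL3, of allantoin breakdown, at 9.77 and 9.90 in E62A against 8.57 and 8.60 on PGM2-labelled arrays (1.24 ± 0.0974). For all 4 genes, both E62A arrays were the highest of the 6 that include REF. By contrast, of 19 genes for amino acid permeases and the sensing complex that induces them, 8 were lower and 1 higher, with a median of -0.16. This is 47.4% of the list. GNP1, a glutamine permease, was at 9.30 and 9.28 in E62A against 10.16 and 9.97 on PGM2-labelled arrays, and TAT2, a tryptophan permease, fell by 0.46 ± 0.0783. Leaving out E62A replicate 1, E62A replicate 2 or PGM2 replicate 1 reduced the lower permease genes to 3, 5 and 4, and 8 were lower without PGM2 replicate 2, 7 of them among the first 8.

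Of 43 measured amino acid synthesis genes under Gcn4, 12 were higher and 2 lower, and the differences were small, with a median of 0.16 and none above 0.50. The 32.6% called there compares with 21.3% of all tested genes. The leading genes were ILV3 (branched-chain amino acids) at 12.87 and 12.95 in E62A against 12.35 and 12.47 on PGM2-labelled arrays, and ARG4 (arginine) at 12.50 and 12.61 in E62A against 12.08 and 12.10 on PGM2-labelled arrays. Whichever array was left out, 4 to 6 were higher and 0 lower. Sulfate assimilation and methionine genes had 5 higher and 2 lower of 24, led by STR3 at 0.62 ± 0.0971, and 2 or 3 were higher whichever array was left out. The 29.2% called there is not far from the share of all genes. Purine genes had 2 higher and 1 lower of 20, which is 15% of the list and below the share of all genes. All 3 are IMP dehydrogenase genes. IMD2 was at 9.10 and 9.47 in E62A against 10.12 and 10.04 on PGM2-labelled arrays, while IMD3 rose by 0.39 ± 0.0681 and IMD4 by 0.45 ± 0.116, a call that ended without E62A replicate 1 (adjusted p = 0.107 from limma), E62A replicate 2 (0.112) or PGM2 replicate 2 (0.141). These genes are close paralogs, which the array may not tell apart fully.

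Of 9 measured members of the Leloir pathway and its regulators, 2 were higher and 1 lower in E62A, which is 33.3% against 21.3% of all tested genes. GAL1 was at 13.90 and 13.89 in E62A against 13.96 and 13.97 on the arrays labelled PGM2, and GAL10 at 13.53 and 13.49 in E62A against 13.58 and 13.59 on PGM2-labelled arrays. GAL7 and GAL2 had overlapping arrays, at differences of -0.01 ± 0.0792 and 0.00 ± 0.0929. These 4 genes are close to the top of the scale, at which RMA values compress differences, so equality is not shown. GAL3, the galactose sensor, was at 10.63 and 10.62 in E62A against 10.73 and 10.86 on PGM2-labelled arrays, and PGM1, the minor phosphoglucomutase, at 9.49 and 9.65 in E62A against 9.69 and 9.86 on PGM2-labelled arrays, and neither was called. GAL80, the inhibitor of Gal4, was at 11.20 and 11.16 in E62A against 11.50 and 11.60 on PGM2-labelled arrays (-0.37 ± 0.0858, adjusted p = 0.0135 from limma), and the call was lost when E62A replicate 1 (0.0716), E62A replicate 2 (0.0985) or PGM2 replicate 2 (0.0881) was left out. UGP1, which makes UDP-glucose, was at 11.87 and 11.95 in E62A against 11.37 and 11.60 on PGM2-labelled arrays, a call that ended without E62A replicate 2 (0.0718) or PGM2 replicate 1 (0.0652). The largest of these differences is thus the one in PGM2 itself, given above. Of 5 minor Gal4 targets, the uracil permease gene FUR4 was higher, at 0.46 ± 0.0813, which is 20% of the list.

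Genes for other carbon sources differed by list. Of 20 genes of gluconeogenesis and the glyoxylate cycle, which glucose represses and Cat8 and Adr1 activate, 10 were lower and 2 higher, with a median of -0.31. This is 60% of the list, against 21.3% of all tested genes. PCK1, the first committed enzyme of gluconeogenesis, was at 7.34 and 7.35 in E62A against 8.65 and 8.87 on the arrays labelled PGM2 (-1.41 ± 0.166). ADH2, the ethanol-oxidising alcohol dehydrogenase, was at 7.21 and 7.30 in E62A against 8.42 and 8.20 on PGM2-labelled arrays, and ICL1, isocitrate lyase, at 9.31 and 9.29 in E62A against 9.98 and 10.06 on PGM2-labelled arrays. ALD4, a mitochondrial aldehyde dehydrogenase, went the other way, at 13.16 and 13.24 in E62A against 12.26 and 12.44 on PGM2-labelled arrays. Leaving out E62A replicate 1, E62A replicate 2 or PGM2 replicate 1 reduced the lower genes of this list to 6, 5 and 6, and 9 were lower without PGM2 replicate 2. SUC2, the invertase gene that glucose represses through Mig1, was at 9.32 and 9.26 in E62A against 10.41 and 10.82 on PGM2-labelled arrays, and at 9.68 and 9.78 in REF. Among the sugar kinases, HXK2 was lower (11.85 and 11.86 in E62A against 12.29 and 12.38 on PGM2-labelled arrays) and HXK1 higher (12.54 and 12.53 in E62A against 11.84 and 12.02 on PGM2-labelled arrays). For HXK1, the REF arrays at 12.71 and 12.79 lay above both strains.

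Hexose transporter genes were lower in 4 of 15 cases and higher in 1, which is 33.3% of the list against 21.3% of all tested genes. HXT5 was at 6.72 and 6.60 in E62A against 8.17 and 8.21 on the arrays labelled PGM2, and HXT2 at 7.06 and 7.20 in E62A against 8.33 and 8.06 on PGM2-labelled arrays. HXT14 was not above the background level of 6.0 on the E62A arrays, so its fall is a bound of at least 1.37-fold. HXT7, which encodes a high-affinity carrier, was at 12.94 and 12.90 in E62A against 12.06 and 12.07 on PGM2-labelled arrays (0.85 ± 0.185, adjusted p = 0.00957 from limma), a call that ended without E62A replicate 1 (0.0632), E62A replicate 2 (0.0541) or PGM2 replicate 1 (0.0589). Maltose and polyol genes had 6 lower and 1 higher of 11, and 6 were lower whichever array was left out. The called share of the maltose and polyol list was 63.6%. MAL32, a maltase, was at 9.89 and 9.87 in E62A against 10.75 and 10.90 on PGM2-labelled arrays, and the sorbitol dehydrogenase gene SOR2 at 8.44 and 8.50 in E62A against 9.40 and 9.38 on PGM2-labelled arrays. The probe sets of HXT7, MAL32 and SOR2 are shared with near-identical genes and cannot tell them apart. Peroxisomal beta-oxidation had 3 higher and 3 lower of 19 (1 or 2 lower whichever array was left out), and glycerol genes 2 higher and 1 lower of 12 (0 higher whichever array was left out), with medians of -0.07 and 0.04. The called shares of these 2 lists were 31.6% and 25%, against 21.3% of all tested genes. Few genes of central metabolism passed the test. Glycolysis had 2 lower of 17, the tricarboxylic acid cycle 1 lower of 20, and the respiratory chain and ATP synthase 5 lower and 1 higher of 36, all below the 21.3% of all genes, with list medians of -0.10, -0.04 and -0.07. Whichever array was left out, 1 glycolysis gene and 2 respiratory genes were called lower.

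**Figure D5:**
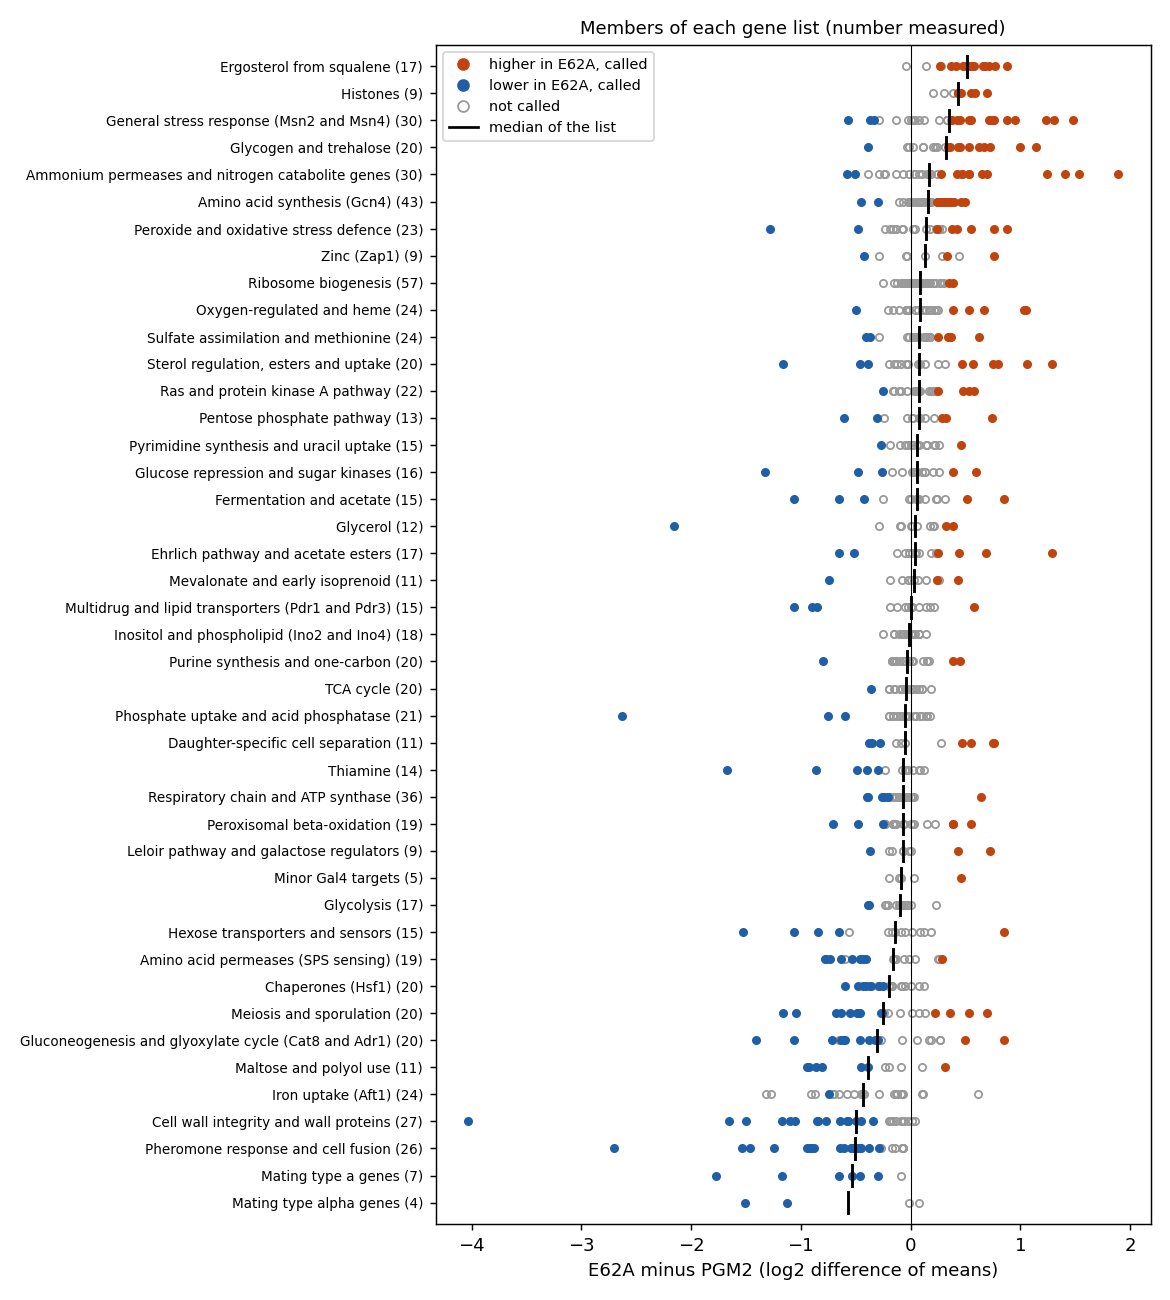
E62A minus PGM2 differences (log2, horizontal axis) of the members of 43 gene lists, 1 point per measured gene, ordered by the median of the list (black bars). Red and blue points passed the test. Ergosterol synthesis has the highest median, 0.51, and mating type alpha genes the lowest, -0.57.

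Most histone genes were higher in E62A. Of 9 measured, 6 were higher and 0 lower, all 9 differences were above 0, and the median was 0.43. This is 66.7% of the list, against 21.3% of all tested genes. HHO1, the linker histone, was at 11.56 and 11.59 in E62A against 10.75 and 11.00 on the arrays labelled PGM2, and HTA1, a core histone H2A gene, at 12.83 and 12.93 in E62A against 12.20 and 12.37 on PGM2-labelled arrays. REF lay near E62A for both, at 11.23 and 11.37 for HHO1 and 12.78 and 12.88 for HTA1. Without any 1 array 6 to 8 were higher. Histone genes are near-identical in pairs, and the array may not tell the copies apart. Of 11 genes that act in daughter cell separation, 4 were higher and 3 lower, and the lower ones were 0 or 1 whichever array was left out. The called share of the separation list was 63.6%. DSE2, a daughter-specific wall protein gene, was at 11.83 and 11.87 in E62A against 10.99 and 11.19 on PGM2-labelled arrays, and CTS1, the chitinase that splits the septum, at 12.53 and 12.62 in E62A against 12.01 and 12.22 on PGM2-labelled arrays.

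Defence against oxidants and genes of low oxygen moved gene by gene. OYE2, an NADPH oxidoreductase, was at 11.00 and 10.94 in E62A against 12.20 and 12.31 on PGM2-labelled arrays (-1.28 ± 0.0736). On the same list of 23 genes 6 were higher and 2 lower, which is 34.8% against 21.3% of all tested genes. GTT1, a glutathione transferase, rose by 0.88 ± 0.0790 and AHP1, a peroxiredoxin, by 0.76 ± 0.0692. Of 24 oxygen and heme genes 5 were higher and 1 lower, and this 25% is close to the 21.3% of all genes. TIR3, a wall mannoprotein of low oxygen, was at 9.12 and 9.01 in E62A against 7.92 and 8.14 on PGM2-labelled arrays, and CYC7, the hypoxic isoform of cytochrome c, at 8.81 and 8.92 in E62A against 7.65 and 7.98 on PGM2-labelled arrays, with REF higher still at 9.83 and 9.63.

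Of 20 genes of meiosis and sporulation, 10 were lower and 4 higher, with a median of -0.25, and 6 to 8 were lower when an array was left out (6 without E62A replicate 2 or PGM2 replicate 1). The called share was 70%, against 21.3% of all tested genes. IME1, the master activator of meiosis, was at 6.58 and 6.43 in E62A against 7.12 and 7.16 on PGM2-labelled arrays, and SPS1 at 6.27 and 6.35 in E62A against 6.97 and 7.02 on PGM2-labelled arrays. The levels of both genes lie near the background level of 6.0, where RMA compresses differences. The same limit holds for the E62A levels of other genes named in the text, such as PRM1, STE3, HXT5 and RTA1. Thiamine genes had 5 lower and 0 higher of 14 (3 without E62A replicate 1 or PGM2 replicate 1, and 4 without each of the other arrays), with THI13 at 7.40 and 7.45 in E62A against 9.03 and 9.16 on PGM2-labelled arrays. The thiamine list had 35.7% called, against 21.3% of all tested genes. Among 15 multidrug and lipid transport genes 3 were lower and 1 higher, with a median of 0.00 and 26.7% called, close to the share of all genes. PDR5, the main drug efflux pump, was at 9.53 and 9.64 in E62A against 10.59 and 10.37 on PGM2-labelled arrays, and RTA1 at 6.37 and 6.21 in E62A against 7.40 and 7.30 on PGM2-labelled arrays. Phosphate genes had 3 lower of 21, which is 14.3% and below the share of all genes. The largest of these falls was in PHO89, and the list median was near 0, at -0.05. Ribosome biogenesis had 2 higher of 57, which is 3.51% of the list, 4 without PGM2 replicate 1 and 0 without each of the other arrays.

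The count on the iron list turned on a single array. Of 24 genes in the Aft1 regulon, which supplies iron when it is scarce, 1 was lower, with a median of -0.43. This is 4.17% of the list, below the 21.3% of all tested genes. Replicates of 1 group were far apart for some genes. FRE1, a ferric reductase named after its values were seen, was at 9.65 and 9.94 in E62A, but at 12.04 and 10.10 on the arrays labelled PGM2, and was called without PGM2 replicate 2 (adjusted p = 0.00787 from limma). FIT3, a wall mannoprotein that retains iron carriers and was likewise named after its values were seen, was at 10.79 and 12.39 in E62A against 12.93 and 9.03 on PGM2-labelled arrays. For FIT3 replicates of the same group were thus farther apart than the group means, which differed by 0.61. Without PGM2 replicate 2, 12 genes of the list were called lower, and over all alternatives the median ran from -1.12 to 0.14, so no direction is given for iron genes.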

How the data were processed

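The values are the log2 values that the authors deposited for 10928 probe sets on 12 arrays. RMA and affy are named in the submitters' processing notes without a version, and no label or header describes further steps. RMA equalises the distributions of the arrays, so a shift of all transcripts would be removed. Deposited log2 values ran from 5.42 to 14.43, and array medians from 6.72 to 6.89. An array has no count depth, so the number of arrays limits the precision.

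Probe sets were named through the platform table (7244 with 1 symbol, 1 with several, 3683 with none), symbols were updated through the gene table of assembly R64, and 5498 matched a budding yeast gene. For genes with several probe sets the brightest on average was used, giving 5449 genes. Of these, 114 have a shared probe set. Background, 6.0, was the 95th percentile of 1746 fission yeast probe sets, and 109 genes had a mean below it. GAL4 had no named probe set in the tables used here.

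Groups came from the sample titles. A mean per group was fitted over the 10 arrays other than REF, which share 1 estimate of the spread, using limma 3.58.1 in R 4.3.3 (lmFit, contrasts.fit and eBayes, with 5 residual and 4.54 prior degrees of freedom, median residual SD 0.0839). The p values were adjusted by Benjamini-Hochberg, two-sided, with a threshold of 0.05. Figures used matplotlib 3.10.9. The test was tested on simulated data.

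The comparison, the 44 gene lists and the rule for naming genes were chosen with earlier results of these data known, so lists are described by counts and medians, with no test. Named genes had the 12 largest rises or falls, were in a fixed set around galactose use and the strain labels, or were among the 6 largest called members of a list (2 where none was called). Others are marked as named after their values were seen. The 12 largest rises and falls were taken only from called genes whose E62A and PGM2 arrays did not overlap. A planned search of promoters for motifs was not run, because the sequences were not used here. Alternatives were other arrays in the fit, other normalizations, filters, variance models, array weights, a replicate block, stricter thresholds and leaving out each array.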

Additional observations from a re-analysis of the deposited data

Results flagged for a closer look

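Outside the named genes, the arrays carry 47 probe sets that the platform names as reporters, and the tables used here do not say what each detects. Of these, 6 lay above both REF arrays by 0.5 or more on the log2 scale on all 4 arrays of the comparison. The mean of the E62A and PGM2 arrays minus the mean of the REF arrays was 1.21, 3.07, 5.35, 5.55, 5.27 and 2.87 on the log2 scale. All but the last share the same sequence identifier in their names, so they need not be separate reporters. The strongest of the 6 lay at 10.52 on both E62A arrays, at 12.14 and 12.32 on the arrays labelled PGM2 and at 6.05 and 5.59 in REF. The same probe set was at 12.97 and 12.87 on the arrays labelled E62C and at 11.21 and 11.08 in SO16, but at 5.57 and 5.87 in E62B. This probe set also differed between the strains, by -1.71 ± 0.103 (adjusted p = 5.21e-05 from limma over all probe sets without REF), as did another, by -1.17 ± 0.216 (adjusted p = 0.0106). The other 4 differed by -0.94 to -0.18 and did not pass the test.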

How the results depend on the processing

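The count of 1162 called genes moved by over 1.5 times under 5 choices other than leaving out an array. It was 1767 with only the 4 arrays of the comparison, 2062 with SO16-2 and E62C-2 left out of the fit, 1993 with array weights, 640 at an adjusted p under 0.01, and 104 with a difference of 1 or more as well (27.9% of them higher, against 46.4% in the main count). Leaving out 1 array gave 583 to 829, the fewest without E62A replicate 1; a lone array is then assumed to vary like the other groups, and fewer samples enter the fit. SO16-2 and E62C-2 had bacterial control means of 8.84 and 8.87 and ribosomal RNA means of 11.55 and 11.91, outside the range of the other arrays. The differences between replicates 1 and 2 of the groups correlated at -0.169 over genes, so the numbers did not pair the arrays, and with the replicate block the count was 1235. Crossing the replicate numbers, an alternative chosen after seeing the data, gave 1276. The other normalizations gave 1325 to 1345. Of 194 genes examined, 164 were called, and 133 stayed called in the same direction under every one of the 18 alternatives that tested them. Among these 18, all 164 kept call and direction under the alternatives that left out no array of the comparison. The stricter thresholds are not among the 18. Called genes such as GAL80 (adjusted p = 0.0135 from limma) and RAS2 (0.0191) do not pass the threshold of 0.01. Of uncalled genes, 8 changed sign: GAL2 was -0.02 with quantile normalization and -0.02 with cyclic loess, and ran from -0.03 to 0.04 when an array was left out, GAL7 ran from -0.04 to 0.02 and LAP3 from -0.03 to 0.09, with single values of 0 for GAL2 and GAL7 and -0.02 for LAP3. When an array was left out, ERG27 ran from -0.15 to 0.07, GSY2 from -0.03 to 0.08, STE20 from -0.15 to 0.02, SAG1 from -0.05 to 0.03 (also 0.01) and FIT3 from -1.34 to 2.56 (also -0.19).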

Other observations

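Of the lists not described above, pentose phosphate genes had 3 higher and 2 lower of 13, fermentation and acetate genes 2 higher and 3 lower of 15, Ehrlich pathway and acetate ester genes 4 higher and 2 lower of 17, pyrimidine genes 1 higher and 1 lower of 15, and zinc genes 2 higher and 1 lower of 9. In that order, 38.5%, 33.3%, 35.3%, 13.3% and 33.3% of each list were called, against 21.3% of all tested genes. The median differences of these lists ran from 0.04 to 0.13.

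Among probe sets with no gene name in the tables used here, 7 were called with a difference of 1 or more, 2 higher and 5 lower. The largest rise among them was at 12.90 and 12.89 in E62A against 9.47 and 9.39 on the arrays labelled PGM2, and the largest fall at 7.39 and 7.32 in E62A against 10.99 and 11.25 on the arrays labelled PGM2. No chromosome stood far from the rest: over 16 chromosomes the median difference ran from -0.05 to 0.025 and the share of genes called from 16.7% to 27.2%.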
